A study of Mus musculus with 5 samples.

Results

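The endothelial cells described here were 146 of 44772 cell barcodes that passed quality control in 5 droplet single-cell RNA-seq libraries of mouse lung. A barcode was kept when it held 300 to 8000 detected genes, 800 to 60000 UMIs (unique molecular identifiers, each standing for 1 captured transcript) and under 15% mitochondrial UMIs. The members were chosen by their measured UMIs: a barcode was called endothelial when it held at least 1 UMI each of Cdh5 (VE-cadherin), Pecam1 (CD31) and Cldn5 (claudin-5) and no UMI of the leukocyte gene Ptprc, the epithelial gene Epcam or the macrophage gene Cd68. The cells came from adult Ms4a3-CreER;R26-tdT mice of both sexes, from 7 weeks of age, on a C57BL6/129 mixed background, in which the Ms4a3 promoter drives a tamoxifen-inducible Cre in granulocyte and monocyte precursors and so marks blood-derived myeloid cells, not vessels. There was 1 library from lungs treated with PBS (sham), and the other 4 came from lungs 3, 7, 14 and 28 days after bleomycin was instilled into the trachea. The labels give the cell type as immune cells, and each group is 1 library of unstated mouse number, so no comparison between libraries carries a test. The intervals below are exact 95% intervals (binomial for shares, Poisson for levels, conditional binomial for ratios of levels) and cover counting error only.

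The lung capillary bed holds 2 known kinds of endothelial cell. Aerocytes, marked by carbonic anhydrase 4 (Car4) and the endothelin receptor Ednrb, line the thin barrier across which gas is exchanged, while general capillary cells, marked by Gpihbp1, Plvap and Kit, divide and can renew both kinds after injury. Arteries, veins and lymphatics carry their own genes, among them Mgp and Gja5 in arteries, Slc6a2 and Vwf in large veins and Prox1 and Ccl21a in lymphatics. Endothelial cells also respond to interferon, a cytokine signal that raises antiviral genes such as Isg15 together with the MHC class I genes that present peptides to T cells.

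Endothelial cells were few and unevenly spread over the time course. The sham library held 6 of 9238 kept barcodes (0.0649%, interval 0.0238 to 0.141%). Day 3 held 70 of 8004 (0.875%, 0.682 to 1.1%) and day 7 held 9 of 9493 (0.0948%, 0.0434 to 0.18%). Day 14 held 26 of 7757 (0.335%, 0.219 to 0.491%) and day 28 held 35 of 10280 (0.34%, 0.237 to 0.473%). The day 3 share lay above those of the other 4 libraries beyond counting error, the shares of days 14 and 28 overlapped each other, and those of sham and day 7 overlapped each other. These are shares of a leukocyte preparation, so fewer endothelial cells in the lung and fewer released by digestion cannot be told apart. The place of day 7 depended on the limits. That library held no barcode under 4624 UMIs, and with this floor in every library the shares of days 14 and 28 fell below that of day 7. Its share also rested on the removal of barcodes with leukocyte, epithelial or macrophage UMIs, as given below.

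The depth behind each group of cells differed as widely. The endothelial cells summed to 14491 UMIs in sham, 514135 on day 3, 81555 on day 7, 91089 on day 14 and 72947 on day 28. The median cell held 1742, 3875, 5935, 2154 and 1239 UMIs in the same order. Levels are given as the UMIs of a gene per 1000000 UMIs of the endothelial cells of a library (CPM), so that 1 UMI was worth 69 CPM in sham, 1.95 on day 3, 12.3 on day 7, 11 on day 14 and 13.7 on day 28. Day 7 stood apart in its deposit: it held exactly 10000 barcodes, none under 4624 UMIs, while the lowest barcode of each other library held 500 to 502 UMIs, so its shallow cells were not analysed here. Single cells weighed heavily in the small groups, since the deepest cell held 44.2% of the sham UMIs, 38.6% of those of day 7, 23.2% of day 14, 24.3% of day 28 and 8.98% of day 3. No endothelial barcode was shared between libraries as a member of both, although 2 member barcodes also occurred as other barcodes in another library.

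**Figure D1:**
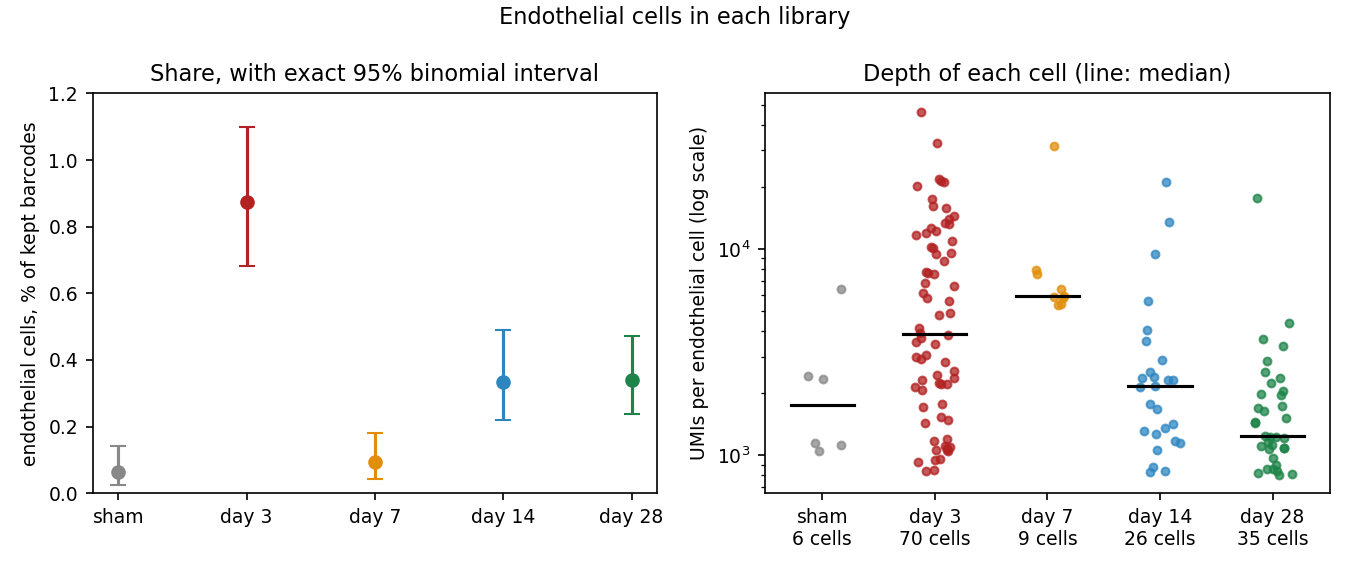
Endothelial cells in the 5 libraries, shown as the percent of kept barcodes with exact 95% binomial intervals and as the UMIs of each cell on a log axis. The day 3 share of 0.875% lay above the other 4, and the median cell held 1239 UMIs on day 28 against 3875 on day 3. The day 7 library held no barcode under 4624 UMIs.

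The label was checked against 20 other endothelial genes that the selection had not used, such as Kdr, Tek, Emcn and Sox17. The median cell held 10 of these in sham, 16 on day 3, 15 on day 7, 13.5 on day 14 and 11 on day 28, and 142 of the 146 held at least 5. Of the 44626 other kept barcodes, 491 (1.1%) held at least 5, and the median was 1. Around the threshold, 279 barcodes held all 3 marker genes and 133 of them were lost to a UMI of Ptprc, Epcam or Cd68, 38 of these to a single UMI. By library 5 of 11 were lost in sham, 38 of 108 on day 3, 53 of 62 on day 7, 21 of 47 on day 14 and 16 of 51 on day 28. Before that loss day 7 held 62 among 9493 kept barcodes and day 28 held 51 among 10280, so the low share of day 7 depended on it. A further 66 barcodes held only 2 of the marker genes and no leukocyte, epithelial or macrophage UMI, and 46 members held a marker by 1 UMI only. Scrublet scores marked 3 members as possible doublets, all on day 3, and they were kept.

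The genes most restricted to the endothelial cells, outside the marker genes, were ranked by their CPM over that of all other kept barcodes with the 5 libraries summed. Day 3 gave 66.4% of the endothelial UMIs, so the order leans on that library. Nts, Ccl21a and Mmrn1 led, by 2951.4-fold, 1154.4-fold and 856.4-fold, but came from 4, 6 and 6 cells. Emcn (endomucin, a sialoglycoprotein of capillary and venous endothelium) was 812.9-fold higher (687.5 to 961) with UMIs in 78 cells. Gpihbp1, which carries lipoprotein lipase to the capillary lumen, was 750.0-fold higher (679 to 828.4) with UMIs in 89 cells. Tmem252, Grrp1, Ackr2, Myct1 and Sox17 followed, between 617.8-fold and 747.1-fold.

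Vessel type was described with 61 marker genes of 6 lists (general capillary, aerocyte, arterial, venous, lymphatic and cycling), on which alone the cells were grouped into 10 clusters. A cluster took a vessel name where 3 or more markers of a list were each found in at least 50% of its cells. Its score for that list also had to be at least 0.2 and lead the next by 0.2. No other list could have more genes among the 10 leading genes of the cluster. A cluster with few UMIs for its libraries and none of its own markers among those 10 genes stayed unnamed. These limits were set after the clusters had been seen, and 1 named cluster of 21 deep cells held none of its markers among its 10 leading genes. A cluster of 25 cells was aerocyte-like, 4 clusters with 56 cells were general capillary-like and 1 cluster of 7 cells was venous-like. The other 58 cells, in 4 clusters, stayed unnamed: 21 that scored highest for the arterial list but held few of its markers per cell, with Cxcl12 its 1 gene among the 10 leading genes and the mural gene Cox4i2 another of the 10, 17 led by Ccl21a and Mmrn1 through a few of its cells, 11 with few UMIs and no leading marker (closest to the aerocyte list), and 9 with arterial and venous genes together, led by Mgp, Selp, Cpe and Vcam1.

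The classes differed in these markers because the grouping used them, and the values are a description. Car4 reached 3330.5 CPM (3024.1 to 3659.5) and was found in all 25 aerocyte-like cells, against 664.7 CPM in 26 of the 56 general capillary-like cells. Ednrb stood at 1499.9 CPM in the aerocyte-like and 175.1 in the general capillary-like cells. Gpihbp1 ran the other way, with 1807.2 CPM in 54 of 56 general capillary-like cells and 230.7 CPM in 6 of 25 aerocyte-like cells. Plvap, which forms the diaphragms of capillary openings, was at 1510.5 and 23.1 CPM in the same order. The 7 venous-like cells held Slc6a2, the noradrenaline transporter, at 966.5 CPM and Vwf at 4330.0 CPM. Of the other venous markers, Amigo2 was found in 6 cells, Prss23 in 5, Ephb4 in 4, Nr2f2 in 3 and Selp in 2. Car8, Ackr1 and Cpe were found in 1 cell each and Vcam1 in none. General capillary markers were present in these cells too, among them Gpihbp1 at 1314.5 CPM in 5 cells and Plvap at 1121.2 CPM in 7.

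**Figure D2:**
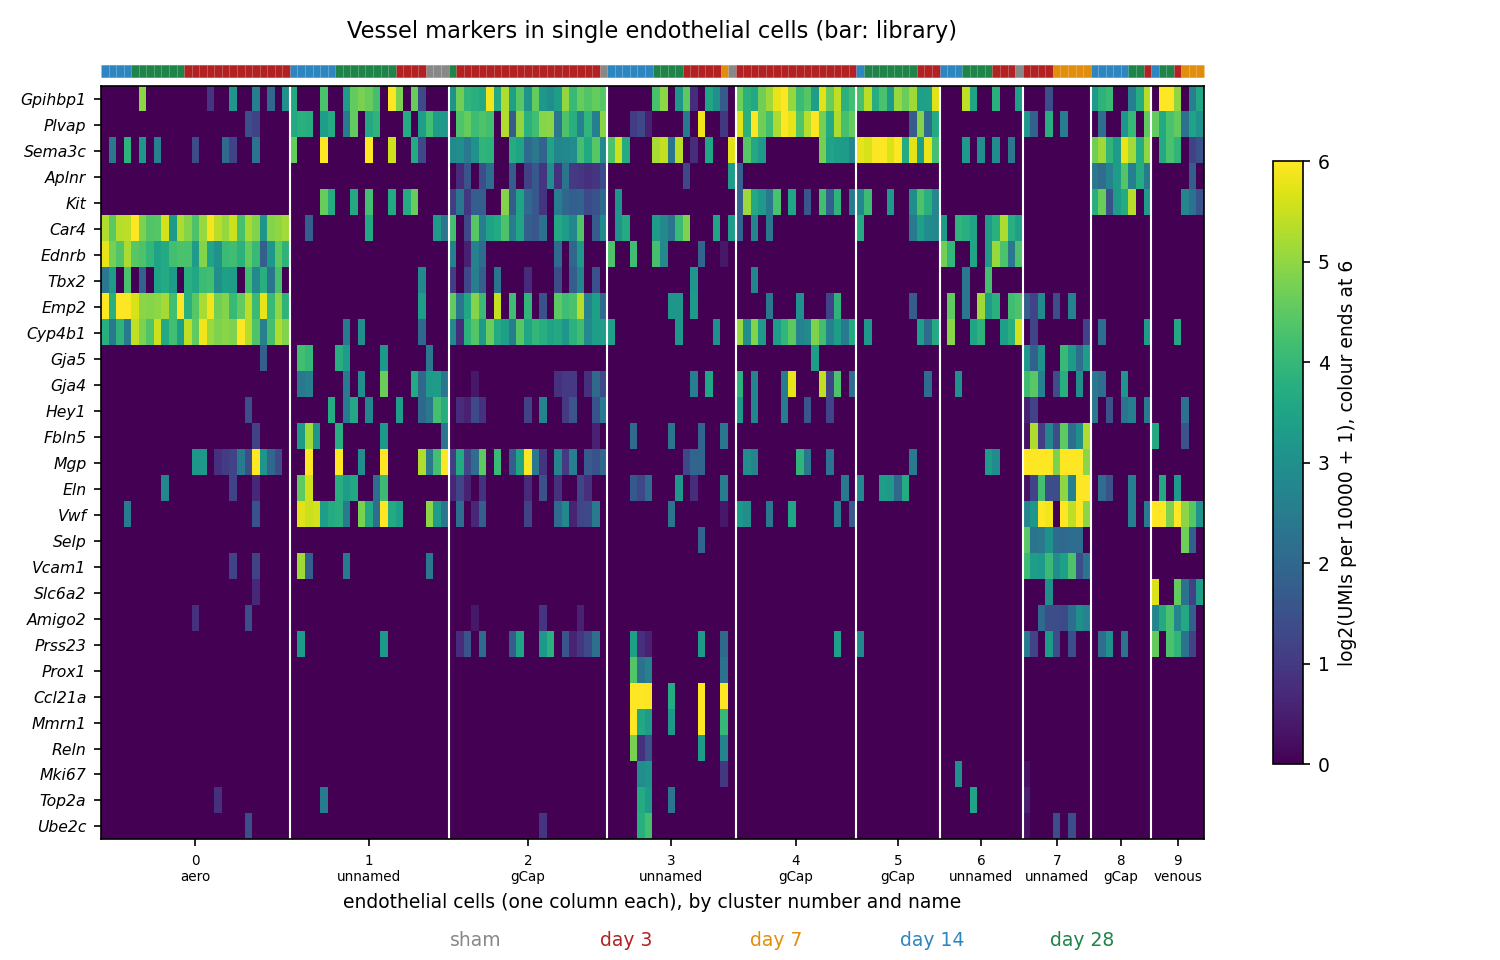
Level of 29 vessel markers (rows) in the 146 endothelial cells (columns), as log2 of the UMIs per 10000 plus 1, ordered by cluster (aero, aerocyte-like; gCap, general capillary-like) with a bar that gives each cell's library. The aerocyte-like cluster holds Car4 and Ednrb, the general capillary-like clusters hold Gpihbp1, and 2 of these (with 35 of the 39 general capillary-like cells of day 3) are made up almost wholly of day 3 cells.

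Cells of a capillary-like cluster were found in every library except day 7. Aerocyte-like cells made up 14 of 70 on day 3 (20%, 11.4 to 31.3%), 4 of 26 on day 14 (15.4%, 4.36 to 34.9%) and 7 of 35 on day 28 (20%, 8.44 to 36.9%). None were among the 6 sham cells or the 9 of day 7, for which the exact upper limits were 45.9% and 33.6%, and 1 sham cell took the name under 3 of the other ways of grouping. General capillary-like cells numbered 1 of 6 in sham, 39 of 70 on day 3 (55.7%, 43.3 to 67.6%), 0 of 9 on day 7, 6 of 26 on day 14 (23.1%, 8.97 to 43.6%) and 10 of 35 on day 28 (28.6%, 14.6 to 46.3%). The day 3 cells lay mainly in 2 clusters, those of day 14 in another and those of day 28 in a further one. Because marker genes such as Plvap and Sema3c themselves differed between libraries, no change in the share of general capillary-like cells is read from these counts. The named classes also moved with the clustering, as the closing section gives.

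Cells of day 7 carried genes of large vessels, although 1 of the 9 held 9 of 9 lymphatic markers and 38.6% of their UMIs. In them 8 of the 9 cells held at least 5 of 11 venous markers, against 6 of 70 on day 3, 1 of 26 on day 14 and none in sham or on day 28. That count depends on depth: with each cell thinned to 800 UMIs it was 2 of 9 on day 7 and none in the other 4 libraries, and the median number of markers detected was 2 on day 7, 0.5 on day 14 and 0 elsewhere. With cells thinned to 2000 UMIs, and shallower ones left out, the count was 2 of 9 on day 7, 3 of 52 on day 3 and none elsewhere. General capillary markers were detected too, and without thinning 6 of the 9 day 7 cells held at least 3 of 9. The same held for 2 of 6 cells in sham, 56 of 70 on day 3, 14 of 26 on day 14 and 20 of 35 on day 28. Vwf, the platelet-binding glycoprotein, stood at 2010.9 CPM on day 7 and at 621.1, 546.5, 768.5 and 425 CPM in sham, day 3, day 14 and day 28, and without cells with 4 or more lymphatic markers at 3254.3 CPM on day 7 and 1488 on day 14. Eln (elastin) stood at 1704.4 CPM on day 7 and at 0, 79.7, 417.2 and 219.3 CPM in the others. Without cells with 4 or more lymphatic markers Eln was at 2475.6 CPM on day 7 and 574 on day 14. Car4 had no UMI on day 7, where 3 UMIs would be 36.8 CPM, and 552.1, 1112.5, 494 (956.6 without those cells) and 1165.2 CPM in the other 4. Macrophage barcodes (with UMIs of Ptprc and Cd68) carry Car4 too. Thinned to 800 UMIs, it was found in 48.2% of them in sham and 11.2% on day 7. The share of its endothelial level that came from free leukocyte RNA was not tested. The UMI floor of that library, under which most endothelial cells of the others would have fallen, moved with this difference. With the same floor in every library 48 cells were left, none was venous-like and the 9 of day 7 were all unnamed. The part of the floor in this difference was not tested further.

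Lymphatic and dividing cells came down to a few barcodes. In all, 5 cells held 4 or more of 9 lymphatic markers, 1 on day 3, 1 on day 7 and 3 on day 14. Prox1, the transcription factor of lymphatic identity, had 12 UMIs in the day 7 cell and 19, 5 and 11 in the day 14 cells, but none in the day 3 cell, which was one of the 3 marked as possible doublets. Of the day 14 cells, those of 13520 and 21115 UMIs also held 9 of 10 cycling markers each, with 9 and 16 UMIs of Mki67 and 16 and 19 of Top2a. The summed cycling list was 2316.4 CPM on day 14, against 0 in sham, 44.7 on day 3, 134.9 on day 7 and 41.1 on day 28. The cells with 4 or more lymphatic markers held 48.4% of the endothelial UMIs of day 14 and 38.6% of those of day 7. A gene with no UMI in them stands 1.94 times higher on day 14 and 1.63 times higher on day 7 when they are left out, which bears on each level of these 2 days given here.

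Interferon-stimulated genes were higher in the endothelial cells of day 3 than in those of days 14 and 28. Day 3 was set against days 28 and 14, comparisons that were added after the sham cells had been seen to be few. A gene was compared when it reached 100 CPM in either library and was called higher or lower when its CPM plus 20 differed at least 2-fold. Between days 3 and 28, 396 of 2436 genes (16.3%) were called higher on day 3 and 436 (17.9%) lower. Of the 22 interferon-stimulated genes that reached 100 CPM, among 29 measured, 21 were higher and none lower, with a median log2 difference of 2.37 against -0.04 over all genes compared. Against day 14, 346 of 2543 genes (13.6%) were higher on day 3 and 547 (21.5%) lower, and 19 interferon-stimulated genes were higher and none lower. The share of mitochondrial UMIs moved with this difference, with medians per cell of 4.58% in sham, 7.09% on day 3, 4.44% on day 7, 4.66% on day 14 and 5.07% on day 28, and of 8.95% and 9.41% in the general capillary-like clusters made up mostly of day 3 cells, and its part was not tested.

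Isg15, a ubiquitin-like antiviral protein, stood at 483.1 CPM in sham (7 UMIs, all in 1 cell), 762.4 on day 3 (392 UMIs in 55 cells), 36.8 on day 7, 208.6 on day 14 and 13.7 on day 28 (1 UMI). Day 3 was 3.66 times day 14 (2.31 to 6.14) and 55.6 times day 28 (9.92 to 2202.3). Its UMIs on days 7 and 14 lay largely in cells with lymphatic markers. Without cells of 4 or more lymphatic markers Isg15 was at 765.6 CPM on day 3, 0 on day 7 and 21.3 on day 14, and day 3 was 36.0 times day 14 (6.43 to 1426.2). Ifit3, which acts with other IFIT proteins against viral RNA, was at 207 CPM in sham, 564.1 on day 3, 0 on day 7, 22 on day 14 and 0 on day 28. That put day 3 at least 13.7-fold above day 28, where 3 UMIs over the library set the floor. Bst2 (tetherin, which holds budding virus at the membrane) was the most abundant member on day 3, with 276, 1861.4, 564, 318.4 and 315.3 CPM in the order of the libraries, and day 3 was 5.9 times day 28 (3.91 to 9.36). Its UMIs lay in 67 of the 70 day 3 cells, and without the 1 cell of day 7 with 4 or more lymphatic markers its level there was 159.7 CPM. Irf7, a transcription factor that extends the interferon response, had 365.7 CPM on day 3 and none on day 28 (at least 8.89-fold). Gbp7 and Igtp, GTPases of the interferon-gamma response, were 2.84 times (1.46 to 6.31) and 10.1 times (2.76 to 84.6) higher on day 3 than on day 28. Stat2, the member that was not called, had 112.8 and 109.7 CPM.

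The promoters of 3 of these genes are shown because they hold letters of the interferon-stimulated response element (ISRE), the site through which genes of this group are known to be switched on. In GRCm38, Isg15 lies at chr4:156199424-156200818 (minus strand), Ifit3 at chr19:34583531-34588731 (plus strand) and Bst2 at chr8:71534255-71537456 (minus strand). Each sequence runs 5′ to 3′ on the gene's strand from 250 bases before to 50 bases after the RefSeq start (GRCm38.p6). Capitals mark every match, on either strand, to the letters GAAA, 2 bases of any kind and GAAA again, with overlapping matches joined.
Isg15, chr4:156200769-156201068: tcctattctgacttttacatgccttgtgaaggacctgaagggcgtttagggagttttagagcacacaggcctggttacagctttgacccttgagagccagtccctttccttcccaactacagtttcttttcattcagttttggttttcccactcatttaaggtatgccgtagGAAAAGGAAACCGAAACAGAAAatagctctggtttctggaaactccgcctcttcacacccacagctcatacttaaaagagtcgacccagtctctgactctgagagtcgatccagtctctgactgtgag
Ifit3, chr19:34583279-34583578: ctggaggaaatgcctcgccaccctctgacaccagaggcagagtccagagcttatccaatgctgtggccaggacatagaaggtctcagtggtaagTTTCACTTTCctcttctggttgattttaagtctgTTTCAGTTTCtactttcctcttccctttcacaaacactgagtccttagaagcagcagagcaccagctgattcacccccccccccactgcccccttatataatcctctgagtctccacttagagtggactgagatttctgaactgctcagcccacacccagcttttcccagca
Bst2, chr8:71537423-71537722: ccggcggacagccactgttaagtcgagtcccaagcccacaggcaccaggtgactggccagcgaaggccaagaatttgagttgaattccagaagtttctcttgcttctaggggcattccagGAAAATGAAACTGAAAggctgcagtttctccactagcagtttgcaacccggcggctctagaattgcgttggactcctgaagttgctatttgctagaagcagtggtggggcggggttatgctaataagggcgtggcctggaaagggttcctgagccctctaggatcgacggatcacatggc
The Isg15 window held 3 overlapping matches, and the Ifit3 and Bst2 windows 2 each. The letters occurred in 14 of the 22 interferon-stimulated promoters found in the table (63.6%), in 2 of 12 MHC class I promoters (16.7%), in 0 of 14 pan-endothelial promoters and in 943 of all 27025 promoters (3.49%). A match describes these letters only.

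The difference was spread over the cells of day 3. Per cell, the summed UMIs of the 29 genes ran from 17.5 to 270.5 per 10000 UMIs on day 3 (median 83.7) and from 0 to 58.0 on day 28 (median 6.95). Sham, day 7 and day 14 cells had medians of 17.9, 6.36 and 12.0, and 56 of the 70 day 3 cells lay above the highest cell of day 28. No day 3 cell was at 0, against 8 of the 26 cells of day 14 and 12 of the 35 of day 28. With every cell thinned to 800 UMIs, Isg15 was found in 33 of 70 day 3 cells (47.1%, 35.1 to 59.4%) and in 1 of 35 day 28 cells (2.86%, 0.0723 to 14.9%). Without thinning these were 78.6% and 2.86%, and in 500 thinned macrophage barcodes of each library (with UMIs of Ptprc and Cd68), which respond to interferon too, 42.6% and 1.0%. Bst2 was found in 78.6% and 14.3% of the thinned endothelial cells and in 54.8% and 10.0% of the thinned macrophage barcodes. Plvap, a gene macrophages lack, was found in 0.2% and 0% of the latter, with median depths before thinning of 12669 and 17794.5 UMIs.

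Both capillary classes had these genes higher on day 3, in clusters made without them. In aerocyte-like cells Bst2 was at 2130.4 CPM on day 3 (14 cells), 192.1 on day 14 (4 cells) and 383.2 on day 28 (7 cells), and day 3 was 5.56 times day 28 (2.35 to 17.3). In general capillary-like cells the levels were 1975.5 (39 cells, mainly in 2 clusters of day 3), 246.3 (6 cells) and 269.5 CPM (10 cells, mainly in another cluster), and day 3 was 7.33 times day 28 (3.83 to 16.1). Isg15 was at 1107.4 CPM in aerocyte-like and 711.9 CPM in general capillary-like cells of day 3 and had no UMI in either class on day 14 or 28, which puts day 3 at least 4.82-fold and 7.92-fold above day 28.

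**Figure D3:**
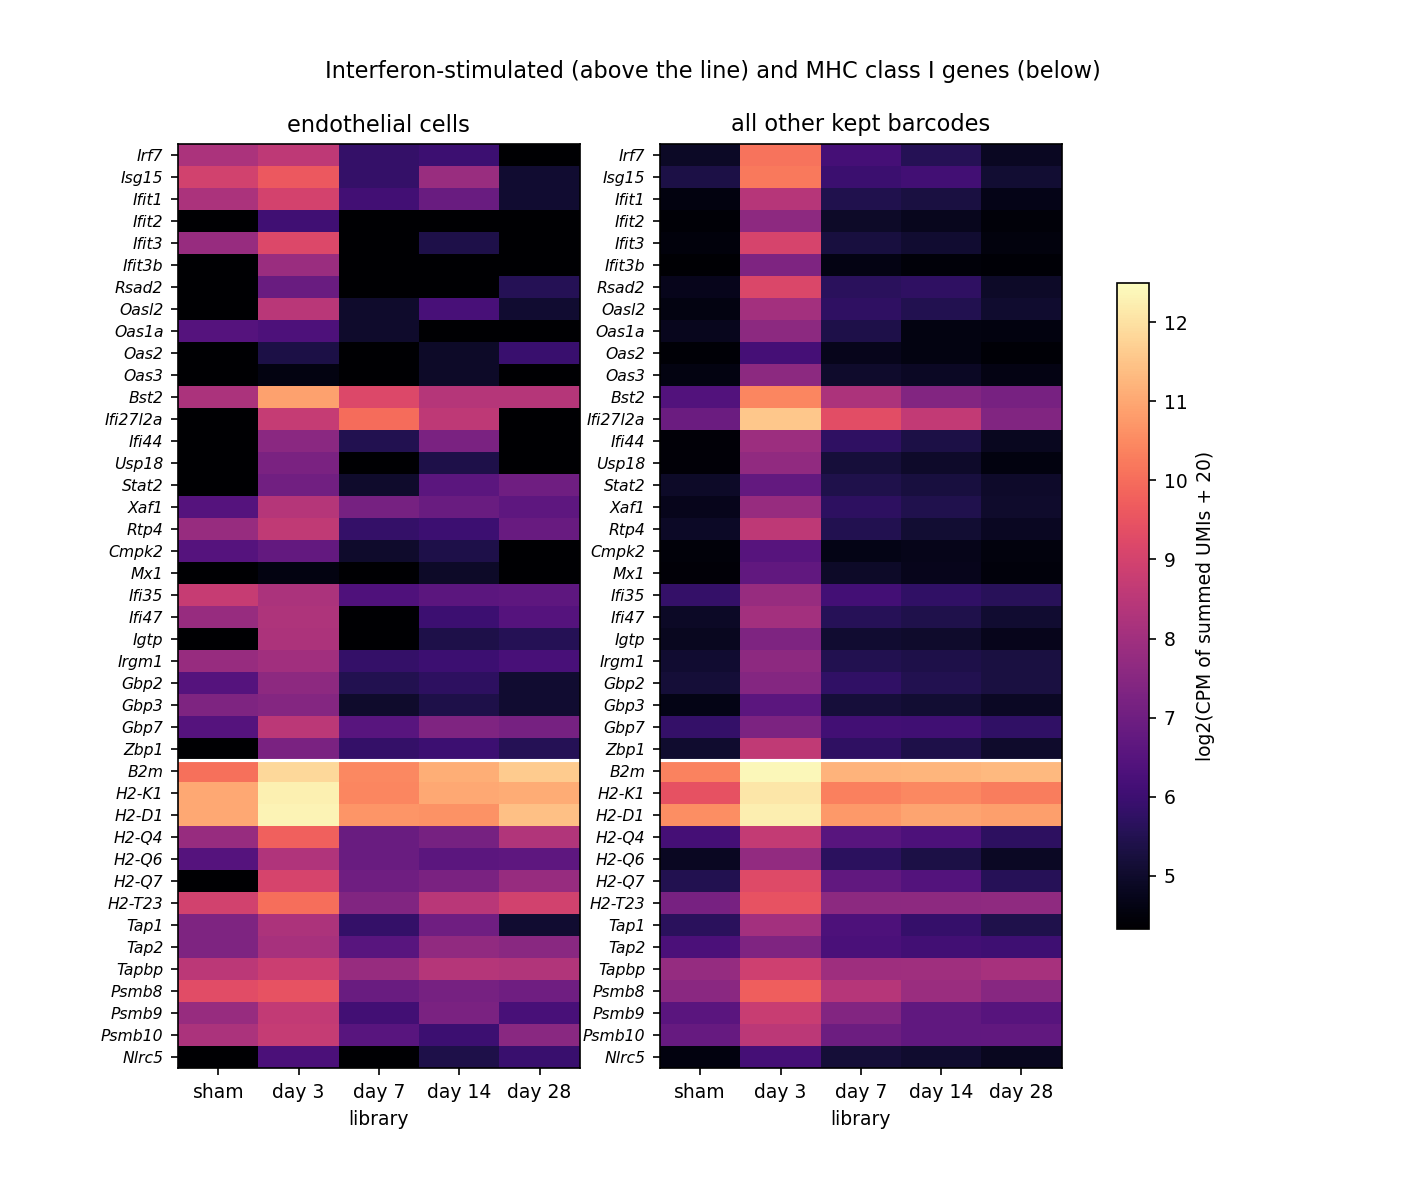
Levels of 28 interferon-stimulated genes (above the line) and MHC class I genes (below it) in the endothelial cells and in all other kept barcodes of each library, as log2(CPM + 20). In both panels the day 3 column stands out, and in endothelial cells Bst2 reached 1861.4 CPM and Isg15 762.4 CPM on day 3.

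The other kept barcodes, mostly leukocytes, carried the same genes on day 3. The 29 genes summed to 12092.4 CPM in them and to 8649.5 CPM (8397.1 to 8907.5) in the endothelial cells on day 3, and to 608.9 and 1137.8 CPM on day 28. RNA set free from leukocytes can enter any droplet, and its part in the endothelial levels was not tested. At day 3 the median endothelial level of 11 macrophage genes was 2.86% of their level in the other barcodes, while that of the interferon-stimulated genes was 110.5% and ran from 2.24% for the lowest gene to 258.9% for the highest. The selection itself lowered the macrophage value, since barcodes with a UMI of Cd68 or Ptprc had been removed. Ifi27l2a lay low on that scale, at 402.6 CPM against 2970.2, and Igtp high, at 278.1 against 137.1 CPM.

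Genes of MHC class I presentation were higher on day 3 as well. Of 13 members at 100 CPM, 9 were higher than on day 28 and none lower (median log2 difference 1.19), and 10 were higher than on day 14. Over all genes 16.3% and 13.6% were higher in the same order. H2-K1, a class I heavy chain (chr17:33996017-34000347, minus strand), stood at 2070.3 CPM in sham, 4913.1 on day 3, 1373.3 on day 7, 2042 on day 14 and 2138.5 on day 28, and day 3 was 2.3 times day 28 (1.95 to 2.72). H2-Q4 was 2.84 times (1.85 to 4.59) and Psmb8, a subunit of the immunoproteasome that cuts the peptides, 6.28 times (3.15 to 14.7) higher on day 3 than on day 28. Tap1, the peptide transporter, was at 278.1 CPM on day 3 and 13.7 on day 28. B2m, the shared light chain, was not called, with 3668.3 and 3098.1 CPM. Within aerocyte-like cells H2-K1 was 4.32 times (2.74 to 7.22) and within general capillary-like cells 2.15 times (1.71 to 2.73) higher on day 3 than on day 28.

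The class II genes were not higher on day 3 than on day 28. Of 6 members at 100 CPM, 1 was lower and none higher, with a median log2 difference of -0.36. Over all genes 17.9% were lower and 16.3% higher. Against day 14, 4 of 5 members were higher on day 3 and 1 lower (median log2 difference 0.95). Against sham likewise 4 of 5 were higher and 1 lower (2.48). Over all genes 13.6% were higher and 21.5% lower against day 14, and 16.6% and 26.3% against sham. The difference from day 14 rested on the 3 day 14 cells with lymphatic markers. Without such cells none of 6 members was higher on day 3 and 2 were lower, beside 508 higher and 785 lower of 2776 genes. The invariant chain Cd74 had no UMI in sham and stood at 1044.5 CPM on day 3, 269.8 on day 7, 505 on day 14 and 1220.1 on day 28. Without the cells with lymphatic markers it was at 1033.9 CPM on day 3 and 935.3 on day 14, a ratio of 1.11 (0.812 to 1.54), and within general capillary-like and aerocyte-like cells alone its log2 difference between days 3 and 14 was -0.5 and -0.24. In the other barcodes Cd74 was at 4854.1 CPM on day 3 and 1727.6 on day 28, and the share of its endothelial level that came from free leukocyte RNA was not tested. Ctss, a protease abundant in macrophages, was the member called lower, at 95.3 and 726.6 CPM.

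**Figure D4:**
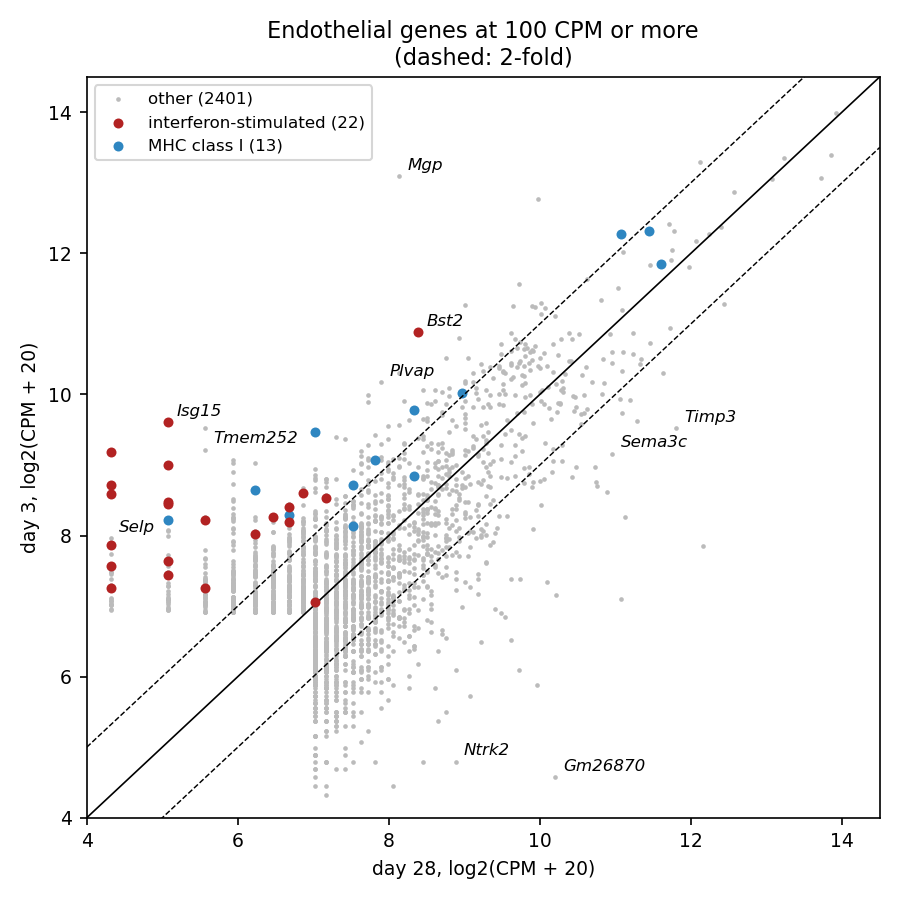
Level of each gene in endothelial cells on day 3 against day 28, both as log2(CPM + 20), with 22 interferon-stimulated genes in red, 13 MHC class I genes in blue and 2401 other genes in grey. All but 1 of the red points (Stat2) lie above the line of 2-fold higher on day 3.

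Of 13 immediate early and heat shock genes at 100 CPM, 8 were higher on day 3 than on day 28 and none lower (median log2 difference 1.33). Over all genes 16.3% were higher and 17.9% lower in that comparison. Against day 14, 3 of 17 members were higher and 4 lower, near the 13.6% and 21.5% over all genes. The transcription factor gene Egr1 stood at 138, 517.4, 698.9, 439.1 and 41.1 CPM in sham, day 3, day 7, day 14 and day 28, and day 3 was 12.6 times day 28 (4.26 to 61.4). Junb was 5.19 times (3.06 to 9.56) and Ier3 3.18 times (2.11 to 5.01) higher than on day 28. Tissue digestion is known to raise genes of this list, and its part was not tested.

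Single genes outside the interferon and class I lists were also higher on day 3. Socs3, the feedback inhibitor of cytokine receptors, stood at 552.1, 719.7, 331.1, 54.9 and 27.4 CPM in the order of the libraries, with day 3 at 26.2 times day 28 (7.22 to 217.5). Lrg1, a secreted glycoprotein that modifies TGF-beta signalling in vessels (chr17:56119678-56122001, minus strand), had no UMI in sham and stood at 770.2 CPM on day 3, 1066.8 on day 7, 362.3 on day 14 and 342.7 on day 28, where the ratio of day 3 to day 28 was 2.25 (1.5 to 3.52). Tmem252 was 21.0 times higher on day 3 (5.76 to 174.2), or 12.0 times (3.28 to 99.6) without the deepest cell. The kinase gene Pim3, at 501.8 CPM on day 3 and 41.1 on day 28, followed the same direction.

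A single day 3 cell set several of the largest differences. That cell of 46159 UMIs, 1 of the 3 marked as possible doublets, held 3241 of the 4491 Mgp UMIs of day 3, 97 of 118 of Selp, 75 of 121 of Vcam1 and all 80 of Dcn, a fibroblast gene. Mgp, an inhibitor of calcification, was 33.5 times higher on day 3 than on day 28 (21.5 to 55.8) with that cell and 8.68 times (5.4 to 15) when the deepest cell of each library was left out. The venous adhesion genes Selp and Vcam1 rest largely on that cell too. Plvap did not: it had 585 UMIs in 48 cells, stood at 1794.2, 1137.8, 245.2, 252.5 and 219.3 CPM, and was 5.19 times higher on day 3 than on day 28 (3.17 to 9.14).

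Of 13 basement membrane and matrix genes at 100 CPM, 6 were lower on day 3 than on day 28 and 2 higher. Over all genes 17.9% were lower and 16.3% higher. Timp3, an inhibitor of metalloproteinases held in the matrix (chr10:86300372-86349506, plus strand), had no UMI in sham and stood at 715.8 CPM on day 3, 2832.4 on day 7 (164 of 231 UMIs in 1 cell), 1295.4 on day 14 and 3550.5 on day 28 (259 UMIs in 27 of 35 cells). Day 3 was 0.202 times day 28 (0.171 to 0.237), and 0.135 times (0.102 to 0.179) in aerocyte-like cells alone. Col4a2, a collagen IV chain, was at 418.2 CPM on day 3 and 1000.7 on day 28, while Col4a1 and Sparc were not called.

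Single genes of other lists were also lower on day 3 than on day 28, while of the TGF-beta and BMP list 3 were higher and 3 lower. Calcrl, the receptor for adrenomedullin, stood at 1725.2, 1242.9, 956.4, 1558.9 and 3139.3 CPM, and day 3 was 0.396 times day 28 (0.34 to 0.462). Thbd (thrombomodulin, an anticoagulant receptor) was 0.411 times (0.345 to 0.493) and Bmpr2, the BMP receptor whose loss is known to cause pulmonary arterial hypertension, 0.384 times (0.32 to 0.464). Within general capillary-like cells Bmpr2 was 0.407 times (0.32 to 0.523). Edn1, the vasoconstrictor endothelin-1, was at 105 CPM on day 3 and 658 on day 28.

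Ntrk2 and Sema3c were lower on day 3 than on day 28. Ntrk2, the receptor for BDNF (chr13:58806569-59133970, plus strand), had no UMI in sham, 7.78 CPM on day 3, 24.5 on day 7, 87.8 on day 14 and 452.4 on day 28, where its 33 UMIs lay in 16 of 35 cells. Day 3 was 0.0172 times day 28 (0.00443 to 0.0484), and with cells thinned to 800 UMIs Ntrk2 was found in 1.43% of day 3 and 31.4% of day 28 cells (4.29% and 45.7% without thinning) and in 0% of macrophage barcodes. Sema3c, a secreted semaphorin that is also one of the general capillary markers (chr5:17574281-17730268, plus strand), stood at 690.1, 552.4, 24.5, 845.3 and 1974 CPM, with day 3 at 0.28 times day 28 (0.228 to 0.344). Other genes lower on day 3 rest on fewer cells: Gm26870 had 84 UMIs in 4 cells of day 28, and Sftpc, an epithelial gene, 33 UMIs in 5 cells, 25 of them in 1.

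**Figure D5:**
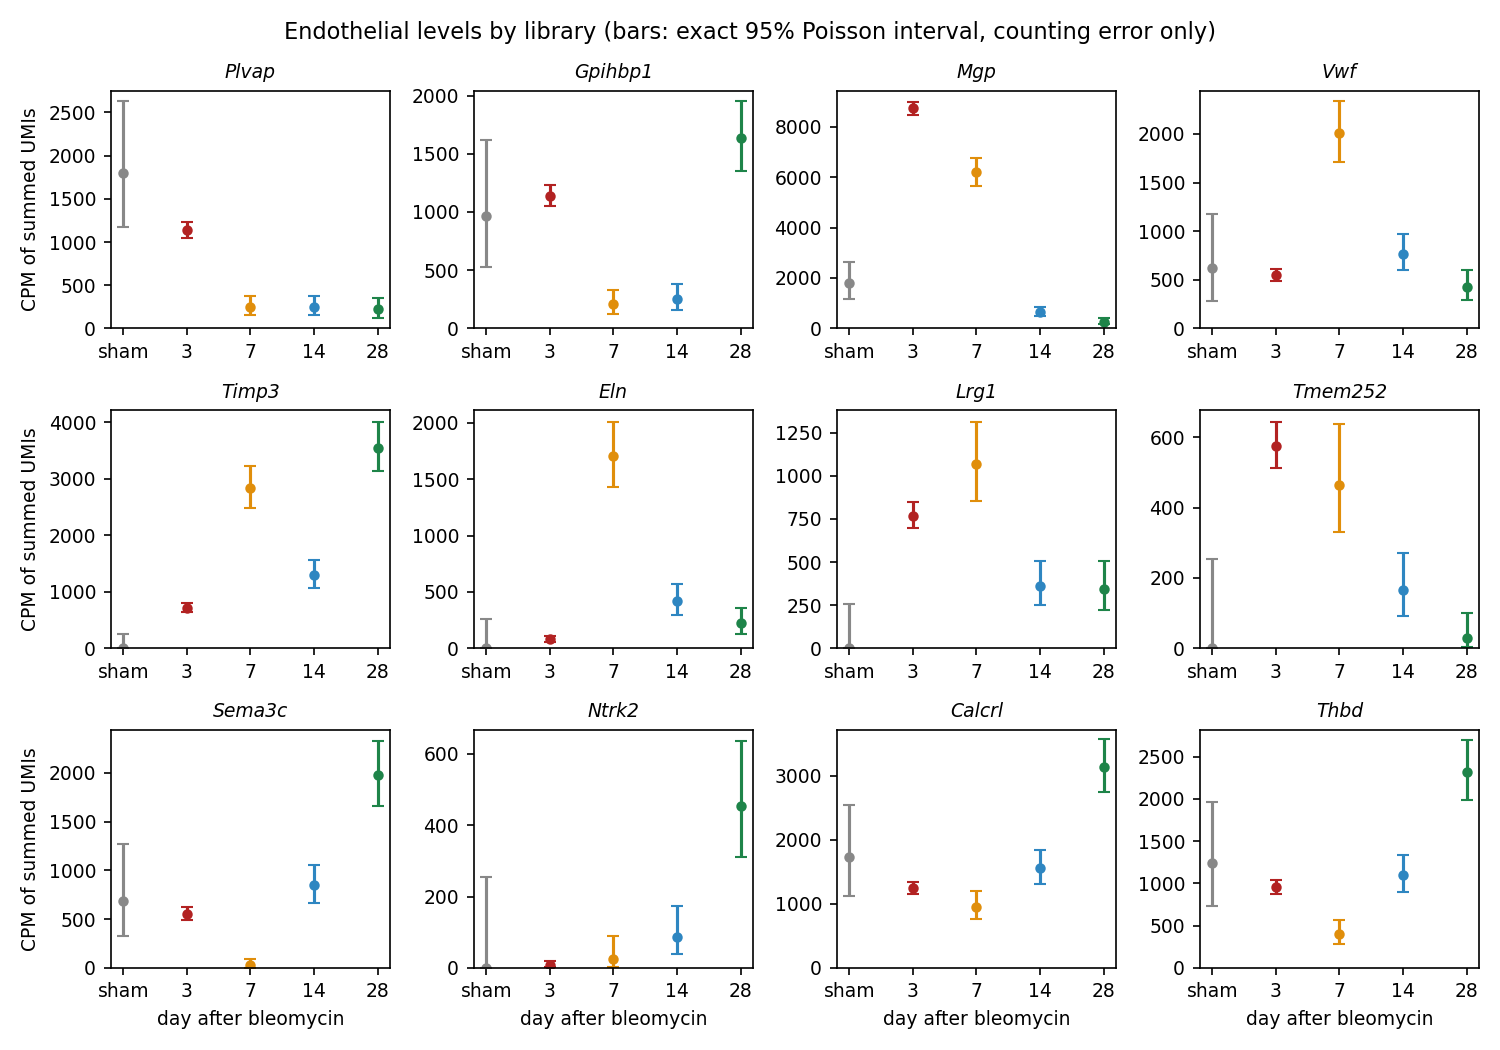
Level of 12 genes in the endothelial cells of each library, in CPM with exact 95% Poisson intervals. Plvap, Lrg1 and Tmem252 were lower on day 28 than on day 3, Timp3, Sema3c, Ntrk2, Calcrl and Thbd were higher, and Vwf and Eln were highest on day 7.

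Other groups of endothelial genes had few called members, and with lists this short nothing is read from their counts beside the 16.3% and 17.9% over all genes. In the comparison of day 3 with day 28, 0 of 7 VEGF and angiopoietin genes were higher and 1 lower, with the receptor Kdr at 756.6 and 945.9 CPM. Of 12 TGF-beta and BMP genes, 3 were higher and 3 lower, with the BMP target Id3 at 920 and 342.7 CPM. Of 5 Notch genes 1 was higher and 1 lower, of 4 flow-response genes 1 and 1 (Klf2, at 2485.7 and 1014.4 CPM, was the higher), of 7 p53 targets 2 and 2, of 8 lipid-uptake genes 1 and 2 and of 4 mesenchymal genes 1 and 1. Of 9 leukocyte adhesion genes 2 were higher and none lower, namely Selp and Vcam1, which rest largely on 1 cell. Of 7 coagulation genes none were higher and 3 lower, and of 9 injury-associated capillary genes 2 were higher and 4 lower. The 20 pan-endothelial genes all reached 100 CPM, with 1 lower (Calcrl) and none higher.

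Differences between days 3 and 14 moved with the lymphatic cells of day 14. Gpihbp1 stood at 966.1, 1139.8, 208.4, 252.5 and 1631.3 CPM in the order of the libraries, and day 3 was 4.51 times day 14 (2.98 to 7.18), or 2.35 times (1.55 to 3.73) without cells with 4 or more lymphatic markers. Of the general capillary genes 2 of 8 compared were higher on day 3 than on day 14, and of the aerocyte genes 4 of 8, with none lower in either list, beside 13.6% higher over all genes. Without those cells 2 of 8 general capillary genes were higher and 3 lower, and of 9 aerocyte genes 2 were higher and 2 lower. Cdkn1a, the p53 target that encodes the cell cycle inhibitor p21, stood at 69, 1048.4, 269.8, 186.6 and 712.8 CPM, and day 3 was 5.62 times day 14 (3.48 to 9.71), or 3.3 times (1.98 to 5.93) without those cells, and 1.47 times day 28 (1.11 to 1.99). Cxcl12, a chemokine of the arterial list, ran the other way, at 175.1 CPM on day 3 and 856.3 on day 14, which was 1636.8 CPM without those cells. The genes furthest above day 3 on day 14, among them Cenpf, Ube2c, Prc1, Prox1, Mmrn1 and Nts, belong to the 3 lymphatic cells. Without cells of 4 or more lymphatic markers, 20 of 22 interferon-stimulated and 7 of 13 MHC class I genes were higher on day 3 than on day 14 and none lower, beside 508 higher and 785 lower of 2776 genes.

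The comparisons with sham rest on 6 cells and can show only large differences. Of the genes compared with sham, 71.3% on day 3, 72.7% on day 7, 74.5% on day 14 and 73.1% on day 28 had 3 or fewer UMIs in the sham cells. At day 3, 431 of 2598 genes (16.6%) were called higher than sham and 683 (26.3%) lower. At day 7 these were 656 (24.0%) and 838 (30.6%) of 2736, on day 14 they were 804 (27.5%) and 891 (30.5%) of 2924, and on day 28 they were 670 (24.1%) and 913 (32.9%) of 2775. Of the genes called higher, 262, 402, 510 and 411 had no UMI in sham, and of those called lower, 494, 547, 552 and 578 rested on 3 or fewer.

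At day 3, 13 of 22 interferon-stimulated and 7 of 13 MHC class I genes compared were higher than sham and none of either were lower. Over all genes 16.6% were higher and 26.3% lower. At days 7, 14 and 28, in contrast, 10 of 13, 9 of 14 and 9 of 13 interferon-stimulated genes compared were called lower than sham. Over all genes 30.6%, 30.5% and 32.9% were lower in the same order. The sham UMIs of this list came mostly from 1 cell of 6410 UMIs. Of the basement membrane and matrix genes compared, 6 of 11 were higher than sham on day 3 (1 lower) and 13 of 17 on day 7 (none lower). On day 14 these were 9 of 15 (1 lower) and on day 28 9 of 12 (1 lower). Over all genes 16.6%, 24.0%, 27.5% and 24.1% were higher in the order of the days. Without cells with 4 or more lymphatic markers, 11 of 14 matrix genes were higher on day 7 and 9 of 13 on day 14. Among single genes, Timp3 was at least 3.46-fold higher than sham on day 3, at least 13.7-fold on day 7 and at least 17.2-fold on day 28, and Lrg1 at least 3.72-fold higher on day 3. At day 7 the aerocyte and capillary genes Hpgd, Tmem100, Cyp4b1, Sema3c and Hopx were among the genes furthest below sham, with Hpgd at 85.8 against 4692.6 CPM and Tmem100 at 61.3 against 1656.2 CPM.

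Genes of other cell types were present in the endothelial cells at levels that moved with the library. The 11 macrophage genes summed to 3657.4 CPM in sham, 674.9 on day 3, 919.6 on day 7, 3546 on day 14 and 7539.7 on day 28, which was 10.7%, 4.14%, 4.05%, 9.59% and 18.5% of their level in the other barcodes. Lyz2, the most abundant of them except on day 3, was at 4551.2 CPM on day 28 and 212 on day 3. In sham, where 3 UMIs were 207 CPM, 5 of the 11 had no UMI (C1qa, C1qb, Mrc1, Ear2 and Csf1r). Lyz2 was found in all 6 sham cells, at 1863.2 CPM, and Chil3 in 5. Epithelial genes summed to 2898.4, 221.7, 980.9, 1471.1 and 3002.2 CPM, most of it Scgb1a1, the club cell secretory protein. Over all genes 17.9% were lower on day 3 than on day 28. Of the macrophage list 7 of 8 genes compared were called lower, and of the epithelial list 3 of 3. These levels were highest where the cells were shallowest, the selection removed barcodes with a UMI of Cd68, Ptprc or Epcam, and the part of these genes in the differences between libraries was not tested. Fibroblast genes were at 451.2 CPM and mural genes at 334.5 CPM on day 3, and under 300 CPM elsewhere, while T cell genes were under 100 CPM in each library.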

How the data were processed

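The deposited matrices hold UMI counts, unnormalised, which per the labels the authors made with Cell Ranger 6.0.0 and the mm10 genome from 10x Genomics libraries of 13000 loaded cells. The study's own doublet scores were not used here. Total UMIs per library ran from 89769386 to 167506186, and the endothelial cells held 14491 to 514135. The quality limits are those of the study's methods. The members, gene lists and vessel markers were chosen with earlier results of these data known, so no list is independent evidence. UMIs were summed over the endothelial cells of each library and given as CPM, and calls used a ratio of CPM plus 20. With 1 library per group no test was run, so no count model such as a quasi-likelihood test could be fitted. Shares were thinned to 2000 UMIs and, as an addition, to 800. Clusters came from Leiden (resolution 1.0, 10 components, 10 neighbours) on the 61 vessel markers. Scrublet, run through scanpy 1.11.5, marked the highest 0.8% of barcodes per 1000 and marked cells were kept except in an alternative. The work ran in Python 3.11.15 with scipy 1.17.1, leidenalg 0.10.2, pandas 2.3.3, matplotlib 3.10.9 and numpy 2.4.6, and the scripts were tested on simulated data. Named genes were the members of the lists, the 8 largest differences in each direction per comparison among genes at 100 CPM or more that were at least 2-fold above the other barcodes, and the 10 genes with the highest ratio to the other barcodes. Of 404 list entries 1 was not in the feature table, and 1 gene of the interferon-stimulated list is counted but not reported by name here. Gene positions are from GENCODE M21 and promoters from RefSeq. Of the alternatives tried, 19 were planned, and leaving out the deepest cell or the lymphatic cells, requiring 5 pan-endothelial genes, using each capillary class alone and comparing day 3 with days 14 and 28 were chosen after seeing the data.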

Additional observations from a re-analysis of the deposited data

How the results depend on the processing

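The counts of interferon-stimulated genes higher on day 3 ran from 16 to 24 against day 28 and from 15 to 22 against day 14 over the alternatives run, and those of MHC class I genes from 6 to 12 and from 7 to 12, all within 1.5 times the main counts. The share of endothelial cells depended on the limits: with any 2 of the 3 marker genes it was 0.195% in sham, 0.58% on day 14 and 0.506% on day 28, when the mitochondrial limit was set to 10% it was 0.671% on day 3, and with the day 7 UMI floor in every library it was 0.0145% in sham, 0.529% on day 3, 0.0715% on day 14 and 0.0134% on day 28. That floor left day 7 at 0.0948%, which was then above days 14 and 28 and below day 3. The vessel classes depended on the clustering. Venous-like cells, 7 in all and 3 on day 7, numbered 16 and 8 at resolution 0.5, 15 and 8 with doublets removed and 12 and 6 by highest score. There were none with 2000 variable genes or with the day 7 UMI floor in every library. At resolution 2 there were 7 and 3, with 10 arterial-like and 5 lymphatic-like cells. Aerocyte-like cells, 14, 4 and 7 on days 3, 14 and 28, numbered 12, 0 and 0 with 2000 variable genes and 15 components, 17, 7 and 11 at resolution 0.5, 16, 2 and 3 at resolution 2, 22, 6 and 12 when each cell was named by its highest score, 21, 4 and 8 with doublets removed and 9, 0 and 0 with the day 7 UMI floor in every library, where day 7 had 0 of 9. In sham, with none as reported, 1 cell was aerocyte-like at resolution 0.5, with 2000 variable genes and by highest score. With 2000 variable genes and 15 components the general capillary-like share was 66.7% in sham, 32.9% on day 3, 0% on day 14 and 0% on day 28, at resolution 0.5 it was 0% on day 14 and 5.71% on day 28, and with the day 7 floor it was 100% in sham, 27.3% on day 3 and 100% on day 28, where 1 cell each was left in sham and on day 28. Counts of genes called higher moved with the level required: at 50 CPM they were 1102, 1389, 1793 and 1571 for days 3, 7, 14 and 28 against sham, 691 for day 3 against day 28 and 567 against day 14, and at 200 CPM they were 167, 292, 327, 276, 209 and 192. With the day 7 floor they were 709, 1284 and 1224 for days 3, 14 and 28 against sham and 556 for day 3 against day 14, where fewer cells were left. With general capillary-like cells alone they were 677 and 1470 for days 3 and 14 against sham and 601 for day 3 against day 14, and with aerocyte-like cells alone, an alternative added after seeing the data, 704 for day 3 against day 28 and 854 against day 14. Cd74 on day 3 against day 14 reversed from a log2 difference of 1.02 to -0.5 in general capillary-like and -0.24 in aerocyte-like cells, and Vim from -1.21 to 1.44 in aerocyte-like cells. Without cells with 4 or more lymphatic markers, also added after seeing the data, Vim reversed to 0.72 and Cd74 fell to 0.14, where Vim on day 14 went from 4336.4 to 1126.7 CPM, and the calls of H2-K1 (0.64), Gbp7 (0.67), Lrg1 (0.56) and Tmem252 (0.82) against day 14 were lost, and Sema3c became lower on day 3 (-1.52). Day 7 had no general capillary-like cells, so that alternative gave no value there. No paired analysis was possible because each group is 1 library. Depth limited sham, where 3 UMIs were 207 CPM.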

Other observations

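The deposited feature table holds an entry named RFP, taken here as the red fluorescent reporter that the Ms4a3 allele switches on. Endothelial cells held 1 UMI of it in sham (1 of 6 cells), 41 UMIs in 20 of 70 cells on day 3, 14 UMIs in 5 of 9 on day 7, 26 UMIs in 13 of 26 on day 14 and 5 UMIs in 4 of 35 on day 28. As levels these were 69, 79.7, 171.7, 285.4 and 68.5 CPM, below the 199.3, 596.9, 248.6, 936.2 and 372.7 CPM of the other kept barcodes in each library. Without cells with 4 or more lymphatic markers the level was 259.5 CPM on day 7, no longer below the other barcodes, and 467.7 on day 14.

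Of the list of 19 chemokine and cytokine genes, 8 reached 100 CPM in the comparison of day 3 with day 28. Of these 3 were higher on day 3 and 2 lower, beside 16.3% and 17.9% over all genes. Without the day 3 cell with 4 or more lymphatic markers, 2 of 7 were higher and 2 lower. That cell, marked as a possible doublet, held 235 UMIs of Ccl21a, a member of this list. Kitl was the most abundant member on day 3, at 482.4 CPM. A further 3 members, chosen after their values were seen, are given here. At day 3 Cxcl10 stood at 35 CPM in endothelial cells and 640 CPM in the other barcodes, Ccl2 at 37 and 1440.7 CPM, and Cxcl9 had no UMI in endothelial cells of any library against 91.9 CPM in the other barcodes of day 3. Vegfa, the growth factor of vessels, stood at 0, 182.8, 208.4, 252.5 and 383.8 CPM in sham and at days 3, 7, 14 and 28, and these levels rest on no more than 94 UMIs in any library. Without cells with 4 or more lymphatic markers Vegfa was at 339.4 CPM on day 7 and 488.9 on day 14, above day 28.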
